A study of Mus musculus with 2 samples.

Results

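Open chromatin was mapped by DNase-seq in whole thymus of 2 female B6CASTF1/J mice aged 25 days, with 1 library per animal and 1 group in all. Described here are the sites that lie in coding exons away from promoters. A site was taken when the midpoint of its peak fell in the coding sequence of a protein-coding gene on an autosome and lay over 2 kb from every annotated transcript start (GENCODE M21, GRCm38/mm10). By this rule replicate 1 had 1774 coding exon sites among 124227 autosomal peaks, or 1.43% (95% Wilson interval 1.36% to 1.496%), and replicate 2 had 952 among 65403, or 1.46% (1.37% to 1.55%). They lay in 1478 and 820 genes, out of 16008 genes with coding sequence that far from a start. Of all sites, 644 were coding exon sites in both animals, in 578 genes. They made up 36.3% of the sites of replicate 1 and 67.7% of those of replicate 2. The B6CASTF1/J animals are the offspring of a C57BL/6J by CAST/EiJ cross, and reads from the parental alleles were not separated in the files. The samples hold no contrast of conditions, and the comparisons are between kinds of site within a library. With 2 libraries the smallest two-sided exact sign-flip p would be 0.5. All values below are therefore given for each library, and no p-value is reported.

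DNase I cuts DNA that is not wrapped up by nucleosomes, so a local excess of cuts marks promoters, enhancers and insulators. Within such a site, a short stretch spared from cutting is called a footprint and can mark a bound protein. Most regulatory DNA lies outside coding sequence, but some exons carry enhancers or binding sites of insulator proteins. There the same bases serve as codons and as contacts for a transcription factor. In a bulk tissue, a site open in fewer cells and a site with fewer cuts per cell cannot be told apart. As a check of the thymus label, open promoters (a peak at most 1 kb from the gene's start) were counted. Of 10 thymocyte markers, 10 had one in both libraries. Of the 16008 genes with coding sequence over 2 kb from a start, 68.2% had one in replicate 1 and 60.9% in replicate 2. Of 11 markers of other thymic cells 3 were open in replicate 1 and 2 in replicate 2. Of 4 markers of liver and muscle, organs that were not sampled, 1 was open in each library.

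The densest coding exon sites shared by both animals are shown first, because their sequence shows how far protected bases can extend into codons. Each is the reference sequence (RefSeq, GRCm38/mm10) on the coding strand over the interval common to both libraries, and the CAST alleles were not read. Capitals mark bases that lay inside a footprint in both libraries. Padi4, chr4:140750521-140750740, encodes a peptidylarginine deiminase that acts on histones. Baiap2l2, chr15:79270421-79270580, encodes a protein that binds curved membranes. Fbxl22, chr9:66511646-66511920, encodes an F-box protein, and 25 bp of non-coding exon were left off its end. Zfp771, chr7:127254061-127254260, encodes a zinc finger protein. Zfyve28, chr5:34196541-34196760, encodes a FYVE finger protein. Gdf15, chr8:70629681-70629940, encodes a secreted factor of the TGF-beta superfamily.
Padi4: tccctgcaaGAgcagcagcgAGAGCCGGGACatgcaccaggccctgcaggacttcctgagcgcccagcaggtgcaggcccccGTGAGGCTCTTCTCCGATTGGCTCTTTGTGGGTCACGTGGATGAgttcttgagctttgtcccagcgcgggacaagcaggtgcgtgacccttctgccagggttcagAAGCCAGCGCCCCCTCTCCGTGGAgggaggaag
Baiap2l2: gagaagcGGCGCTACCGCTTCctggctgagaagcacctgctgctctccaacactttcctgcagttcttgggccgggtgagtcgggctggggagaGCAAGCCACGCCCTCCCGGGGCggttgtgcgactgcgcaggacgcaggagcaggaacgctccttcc
Fbxl22: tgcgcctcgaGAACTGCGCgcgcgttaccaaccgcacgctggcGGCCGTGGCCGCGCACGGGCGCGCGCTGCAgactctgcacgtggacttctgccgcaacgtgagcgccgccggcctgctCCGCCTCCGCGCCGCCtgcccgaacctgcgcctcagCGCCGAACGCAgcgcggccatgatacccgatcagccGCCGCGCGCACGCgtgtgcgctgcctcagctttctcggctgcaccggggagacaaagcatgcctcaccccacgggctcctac
Zfp771: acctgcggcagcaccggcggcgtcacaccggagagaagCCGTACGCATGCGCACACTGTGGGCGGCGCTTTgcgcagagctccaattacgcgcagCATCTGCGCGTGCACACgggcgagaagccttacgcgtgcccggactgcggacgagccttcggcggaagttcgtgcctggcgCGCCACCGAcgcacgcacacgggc
Zfyve28: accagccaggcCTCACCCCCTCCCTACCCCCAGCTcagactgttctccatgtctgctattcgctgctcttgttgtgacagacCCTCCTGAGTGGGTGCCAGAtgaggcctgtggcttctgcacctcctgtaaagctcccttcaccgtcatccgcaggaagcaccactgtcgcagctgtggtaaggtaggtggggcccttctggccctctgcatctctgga
Gdf15: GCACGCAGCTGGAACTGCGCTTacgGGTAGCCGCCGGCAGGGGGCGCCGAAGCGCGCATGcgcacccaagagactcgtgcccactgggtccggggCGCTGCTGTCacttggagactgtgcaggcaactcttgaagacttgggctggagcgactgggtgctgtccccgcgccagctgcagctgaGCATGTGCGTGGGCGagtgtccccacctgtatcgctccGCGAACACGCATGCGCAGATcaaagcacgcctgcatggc

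In 4 of these 6 (Baiap2l2, Fbxl22, Zfp771 and Gdf15) every printed base is coding. Padi4 has 145 coding bases of 220, and 55 of its 81 capital bases are coding. In Zfyve28 the exon fills 104 of 220 bases, and 20 of the 44 capital bases are coding. Gdf15 has the most capital bases, 102 of 260 in 5 runs. It holds 3 matches of GCGCATG (searched on both strands), the core of the site of NRF1, a factor of housekeeping promoters. Of these matches, 2 lie wholly in capitals, and the first and second overlap each other. Zfp771 holds 1 match of the same letters, also wholly in capitals. A CACGTG E-box, the palindrome bound by basic helix-loop-helix factors, lies in capitals in Padi4. The CACGTG match in Fbxl22 holds no capital base, and neither do the CACCTG matches in Padi4.

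The second set holds the densest shared sites with a match to the consensus of CTCF, the zinc finger protein that anchors chromatin loops and insulates domains. Capitals mark the CTCF match, on either strand. Zscan10, chr17:23610601-23610800, encodes a SCAN-domain zinc finger protein. Synpo2l, chr14:20661061-20661220, encodes an actin-associated protein of muscle. In both the match lies wholly in coding sequence.
Zscan10: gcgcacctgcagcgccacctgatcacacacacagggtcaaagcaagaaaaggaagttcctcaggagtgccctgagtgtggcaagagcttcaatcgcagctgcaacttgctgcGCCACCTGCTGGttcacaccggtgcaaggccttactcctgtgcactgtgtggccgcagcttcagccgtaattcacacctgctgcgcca
Synpo2l: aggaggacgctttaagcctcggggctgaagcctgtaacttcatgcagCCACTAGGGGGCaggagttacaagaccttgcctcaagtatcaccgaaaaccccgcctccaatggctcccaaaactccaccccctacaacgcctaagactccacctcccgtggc

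Strength is given as the signal density that the authors deposited for each peak, with no unit or scaling stated. Padi4 had a density of 17.5 in replicate 1 and 13.8 in replicate 2 and ranked second among coding exon sites in both. Zfyve28 had the highest density of replicate 2, 17.4, and 11.3 in replicate 1. Fbxl22 stood at 13.4 and 13.5. The median over all coding exon sites was 0.579 in replicate 1 and 0.672 in replicate 2, so these sites lie at the far upper end. Baiap2l2 had densities of 15.5 and 11.2, Zfp771 16.4 and 9.61, and Gdf15 14.3 and 9.91. Lipe, the gene of hormone-sensitive lipase, had 13.0 and 10.4 in its last coding exon. Nmnat1, whose product makes NAD in the nucleus, had 9.85 and 12.4. The remaining 4 of the 12 densest were N4bp3, Sult2b1, Nup214 and Akap13, between 9.08 and 9.86 in replicate 1 and between 7.84 and 10.7 in replicate 2. Sult2b1 encodes a sulfotransferase of sterols, Nup214 a nuclear pore protein and Akap13 an anchoring protein of protein kinase A. None of these 12 genes is a T-lineage gene by the lists used here.

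**Figure D1:**
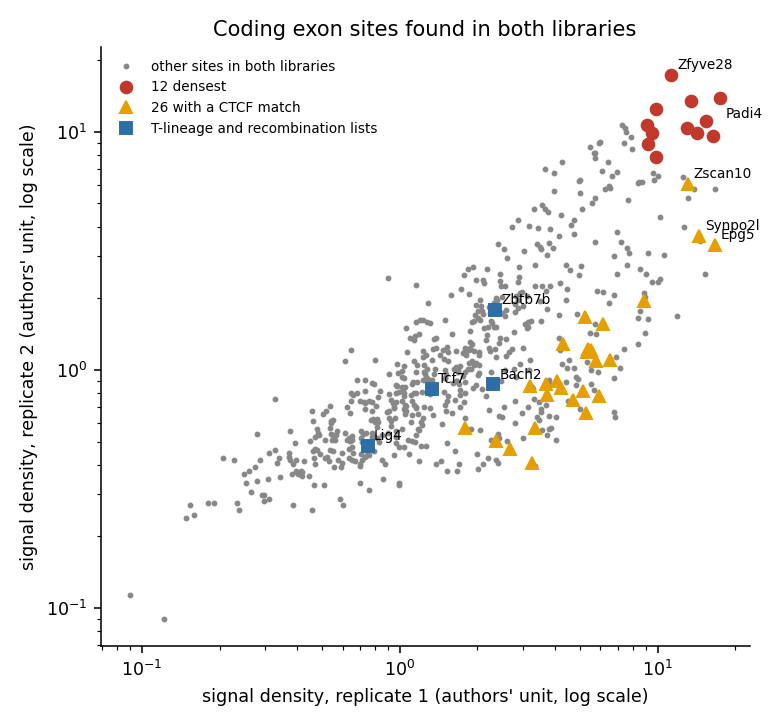
Signal density of the 644 coding exon sites found in both libraries, replicate 1 on the x axis and replicate 2 on the y axis, both in the authors' unit on log scales, with 1 point per site. The 12 densest sites (circles) lie at the upper right, and the 26 sites with a CTCF match (triangles) lie toward the lower right edge of the cloud, with high values in replicate 1 and lower ones in replicate 2.

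Across the 644 shared sites density correlated between the animals (Spearman rho 0.763, and Pearson r 0.773 for log10 density). The points are sites of the same 2 libraries and not replicates. Shared sites had a median density of 1.79 in replicate 1 and 0.912 in replicate 2. Sites without any partner peak had medians of 0.386 and 0.291. By at least 1 bp, 705 sites of replicate 1 overlapped some peak of the other library, or 39.7% (Wilson bounds 37.5% and 42.0%). In replicate 2, 730 did, or 76.7% (73.9% and 79.3%). For intron sites of the same genes these shares were 41.0% and 84.2%. Replicate 1 had the longer peak list of the 2 animals, and in each library the sites that the other animal lacked were mostly the weak ones. All peaks more than 2 kb from starts were cut into 4 classes of equal size by density. In the lowest class, 5.82% of coding exon sites in replicate 1 and 37.9% of those in replicate 2 had a partner. In the highest class 88.1% and 100% had one.

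Among shared sites, those with a CTCF match were denser than the others in replicate 1 but not in replicate 2. Over all coding exon sites the median density was higher with a match within 100 bp of the midpoint in both libraries. It was 2.10 against 0.555 in replicate 1 and 0.840 against 0.666 in replicate 2. A partner peak was present for 44.1% with a match and 39.6% without in replicate 1, and for 100% and 75.8% in replicate 2. Among the 644 shared sites, the 26 with a match had a median density of 5.18 in replicate 1 (quartiles 3.70 and 5.89), against 1.71 for the 618 without (0.865 and 3.41). In replicate 2 the medians were 0.885 with a match (0.757 and 1.27) and 0.915 without (0.558 and 1.76). The ratio of medians was thus 3.03 in one animal and 0.967 in the other. Intron sites did the same. For all intron sites with a partner in the other library, the ratio with a match over without was 3.04 in replicate 1 (823 sites with a match) and 0.840 in replicate 2 (810 sites). Each ratio is taken within a library, so a scaling by 1 factor per library would not enter it. What differed between the libraries was not tested. The 3 densest were Zscan10 (13.1 and 6.05), Synpo2l (14.5 and 3.66) and Epg5 (16.7 and 3.34), whose product acts in autophagy.

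A CTCF match in an open coding exon almost always lay in a footprint. Of 68 coding exon sites with a match within 100 bp of the midpoint in replicate 1, 64 had a footprint over the match (94.1%), and 32 of 33 did in replicate 2 (96.97%). Of the bases of those matches, 89.7% and 88.4% lay inside a footprint, where 13.5% and 12.1% of all bases in the windows did. In intron sites of the same genes the shares of matches with a footprint were 93.9% and 93.8%, close to those in exons. GGGCGGG, the GC box bound by SP and KLF factors, came next, with 36.8% and 42.3% of its bases in footprints at coding exon sites and 49.2% and 47.8% at intron sites. GCGCATG, the NRF1 core, was at 26.8% and 33.15% in coding exons and at 43.4% and 35.25% in introns. Of coding exon sites with an NRF1 match, 14 of 39 in replicate 1 and 6 of 22 in replicate 2 had a footprint over it. CTTTGAT, the letters searched for TCF/LEF, was at 20.7% and 32.9% in coding exons and at 24.4% and 32.2% in introns. CCGGAAG, the core of the site of ETS factors, was at 18.5% and 20.5% in coding exons and at 28.5% and 28.0% in introns. For the E-box CACGTG the shares were 14.6% and 15.5% in coding exons, near that of any base, and 25.1% and 28.2% in introns. TGTGGT, the core of the site of RUNX factors, was at 14.1% and 16.2% in coding exons and 17.95% and 18.8% in introns. GGTAAG, the splice donor consensus at the edge of exon and intron, had 7.76% and 4.81% of its bases in footprints.

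How often a motif occurred was then counted in the 200 bp around each midpoint, and set beside intron sites of the same genes, all autosomal peaks and the 117698 eligible coding exons whose own midpoint is over 2 kb from a start. The ETS core was more frequent in coding exon sites than in intron sites of the same genes or in exons at large. Of coding exon sites 5.13% held it in the first animal (Wilson bounds 4.197% and 6.26%) and 5.99% in the second (4.65% and 7.68%). Intron sites of the same genes held it in 1.75% and 2.22%, all peaks in 4.12% and 6.36%, and eligible exons in 2.18%. This motif contains a CpG, and coding exon sites are richer in CpG than intron sites. Within windows of 55% to 65% GC the shares were 5.74% and 7.39% in coding exon sites, 2.39% and 2.74% in intron sites and 3.87% in eligible exons. The part of CpG content in this was not tested.

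The CTCF consensus was found in 3.83% and 3.47% of coding exon sites and in 5.78% and 4.004% of intron sites. All peaks held it in 5.47% and 4.30%, but only 0.143% of eligible exons did, so open exons held it far more often than exons at large. At 55% to 65% GC the order of coding and intron sites differed between the libraries (3.67% against 3.97%, then 3.90% against 3.25%). AGATAA, bound by GATA factors, was less frequent in coding exon sites (4.23% and 4.52%) than in intron sites (8.61% and 9.10%), and all peaks held it in 6.54% and 5.81%. Eligible exons held it in 9.02%. TGANTCA, bound by AP-1, was also less frequent in coding exon sites, at 4.17% and 2.63% against 6.67% and 8.16%, with 5.97% and 5.57% in all peaks and 4.83% in eligible exons. Both orders held at 55% to 65% GC. There GATA was at 2.53% and 2.26% in coding exon sites against 4.41% and 5.48%, and AP-1 at 3.67% and 2.46% against 5.48% and 5.65%. Eligible exons of that GC held GATA in 2.42% and AP-1 in 3.13%, near the shares of coding exon sites.

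For the RUNX core and the GC box the order turned with base composition. Over all windows it was in 18.9% and 20.7% of coding exon sites and 23.5% and 25.6% of intron sites. At 55% to 65% GC it was in 19.3% and 22.8% of coding exon sites and 17.8% and 20.6% of intron sites. All peaks held it in 19.3% and 19.2% and eligible exons in 14.3%. The GC box was in 5.52% and 6.20% of coding exon sites and 4.60% and 5.19% of intron sites over all windows, with 11.01% and 15.7% in all peaks and 1.51% in eligible exons. At 55% to 65% GC it was in 4.94% and 4.31% against 8.63% and 8.05%. CAGCTG, the E-box read by the E proteins of early thymocytes, was in 25.1% and 30.6% of coding exon sites, 19.0% and 24.0% of intron sites, 17.0% and 19.8% of all peaks and 14.6% of eligible exons. At 55% to 65% GC its shares were nearer to each other, at 28.5% and 33.3% against 27.5% and 30.99%. A motif match describes letters and shows no binding.

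**Figure D2:**
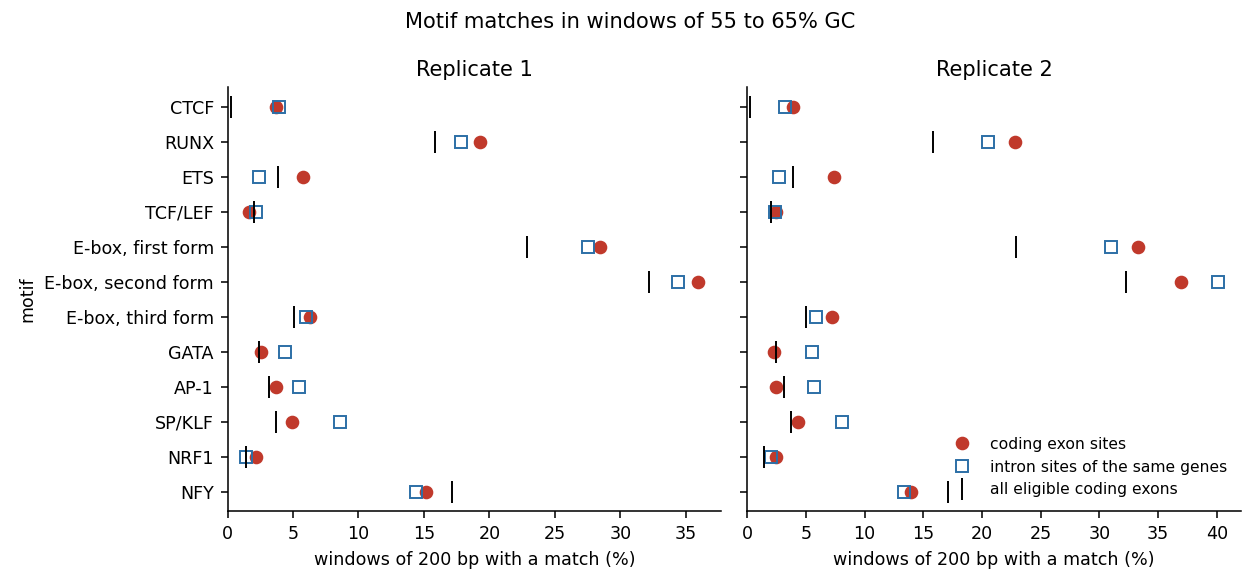
Percent of 200-bp windows with a match (x axis) for each motif (y axis) at 55% to 65% GC, in replicate 1 (left) and replicate 2 (right), for coding exon sites (filled circles), intron sites of the same genes (open squares) and all eligible coding exons (bars). The E-box is CAGCTG in its first form, CACCTG in its second and CACGTG in its last. ETS lies to the right of intron sites in both libraries, GATA, AP-1 and SP/KLF to the left.

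In the longer of the 2 peak lists of each library, coding exon sites were weaker than intron sites of the same genes, with a larger share of weak sites. In replicate 1 the 1774 coding exon sites had a median density of 0.579 (quartiles 0.323 and 1.51) and the 6760 intron sites 0.714 (0.402 and 1.57). In replicate 2 the 952 coding exon sites had 0.672 (0.400 and 1.28) and the 2023 intron sites 0.798 (0.474 and 1.53). The ratio of medians was 0.811 and 0.842, with a mean of 0.827 ± 0.0219 (SD, n = 2). The quartiles overlapped widely in both animals. The lowest of the 4 density classes held 30.1% and 33.5% of coding exon sites and 20.5% and 24.0% of intron sites, while the highest held 23.6% and 22.4% against 24.3% and 27.3%. Among the denser 50% of peaks the ratio was 1.11 in replicate 1 and 0.934 in replicate 2, and among sites with a partner in the other library it was 1.07 and 0.899. With the shorter peak list of each library the ratio was 1.01 and 0.943. In those sets the animals thus did not share a direction.

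Gene by gene the gap was smaller. In replicate 1, 1055 genes held both kinds of site, and the median over genes of the ratio of their densities was 0.886, with the coding site weaker in 55.2% of genes. In replicate 2, 468 genes did, the median ratio was 0.926 and the coding site was weaker in 53.0%. The densest site of the gene was in coding sequence in 24.6% and 30.8% of these genes, with a median of 4 and 3 intron sites per gene. A further 423 and 352 genes had a coding exon site and no intron site over 2 kb from a start.

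Width did not separate exon from intron sites. The median was 180 bp for both in replicate 1, and in replicate 2 it was 197 bp for coding exon sites and 187 bp for intron sites. Quartiles were 137 and 220 bp against 151 and 220 bp in replicate 1, and 127 and 220 bp against 140 and 220 bp in replicate 2. Single sites spanned 21 to 1060 bp in replicate 1. The widest shared sites lay in Kifc2, a kinesin gene, with 720 and 620 bp, and in Bach1, a repressor of heme-regulated genes, with 620 and 420 bp. Lzts3 (400 and 620 bp) and Marcks (560 and 340 bp), which encodes a substrate of protein kinase C at the membrane, followed. The Lzts3 site lies 41 bp from a transcript start of RefSeq that GENCODE M21 lacks at that place. In total 113 sites of replicate 1 (6.37%) and 69 of replicate 2 (7.25%) lay within 2 kb of a RefSeq start.

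The direction of the difference in footprint number depended on which sites were counted. Over all sites, coding exon sites held a mean of 1.99 footprints in replicate 1 against 2.17 for intron sites, a difference of -0.174. In replicate 2 they held 2.18 against 2.14, a difference of 0.0347. Sites with no footprint were 23.5% of coding exon sites (95% Wilson interval 21.6% to 25.5%) and 16.6% of intron sites (15.7% to 17.5%) in replicate 1. In replicate 2 they were 15.97% (13.8% to 18.4%) and 15.4% (13.9% to 17.1%). Gene by gene both animals had fewer on the coding side. Over the 1055 and 468 genes with both kinds of site the mean difference was -0.198 and -0.0391 footprints, with fewer in 582 genes and more in 406 in replicate 1, and fewer in 233 and more in 185 in replicate 2. In the stronger sets both animals had more on the coding side, by 0.203 and 0.405 in the denser 50% of peaks and by 0.0730 and 0.133 among sites with a partner. Because weak sites hold few footprints, the means were also set side by side within the 4 density classes. In replicate 1 the difference of coding exon sites from intron sites was -0.174 and -0.0669 footprints in the lower 2 classes and 0.101 and 0.0977 in the upper 2. In replicate 2 it was 0.122, 0.190, 0.206 and 0.373 from the lowest to the highest class. The highest counts were at Syne2, which encodes a nesprin of the nuclear envelope, with 8 and 7 footprints, and at Wipf3, of a family that binds WASP, with 6 and 9. 1700008O03Rik and Maff, a small MAF factor gene, had 7 in both animals.

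**Figure D3:**
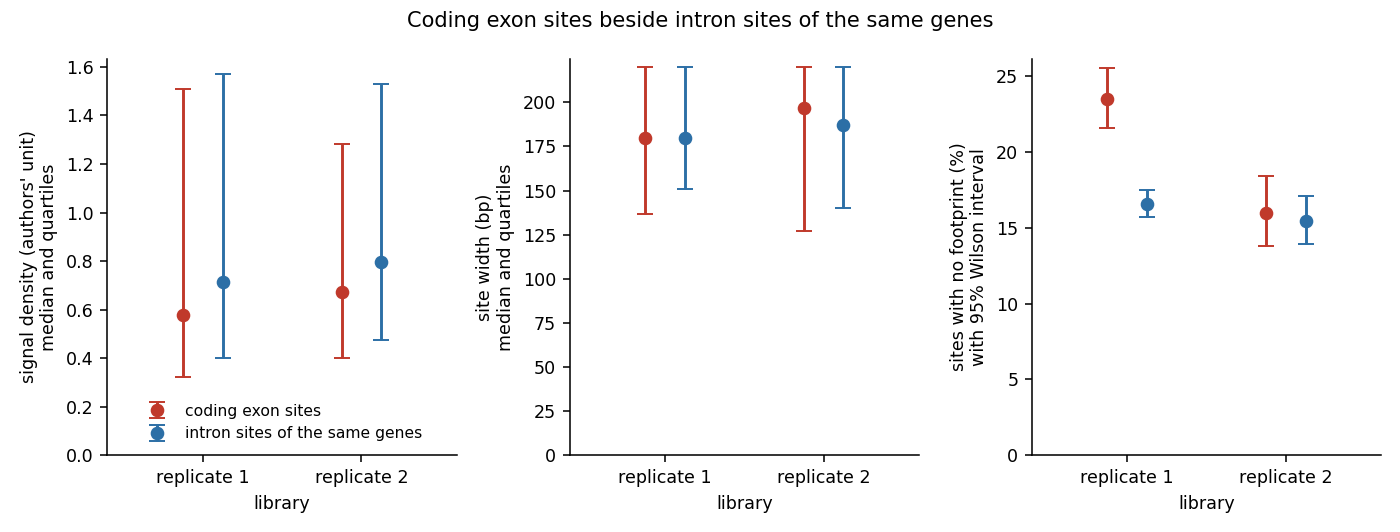
Signal density (left, median and quartiles, authors' unit), width (middle, median and quartiles, bp) and percent of sites with no footprint (right, with 95% Wilson intervals) for coding exon sites (red) and intron sites of the same genes (blue), by library. Density medians are lower for coding exon sites in both libraries, width medians are close, and sites with no footprint are more frequent in coding exons in replicate 1 (23.5% against 16.6%) and near equal in replicate 2.

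Pooled over the coding exon sites of a library, coding bases lay in footprints less often than other bases at the same distance from the midpoint. The 2 kinds of base come partly from different sites. Sites coding throughout (37.4% and 40.6%) hold no other bases, so this is not a comparison within single sites. Within 25 bp of the midpoint 23.5% of 83764 coding bases and 24.6% of 4715 other bases lay in a footprint in replicate 1. In replicate 2 these were 19.4% and 23.4%. From 25 to 50 bp these were 12.1% and 14.3% in replicate 1 and 13.1% and 13.6% in replicate 2. From 50 to 100 bp the 2 bands gave lower values on coding bases in both animals, such as 9.65% against 11.5% beyond 75 bp in replicate 2. The order was the same in all 8 pairs of band and library, though several gaps are small. Bases of intron sites of the same genes lay in footprints more often than coding bases in every band of replicate 1. In replicate 2 the intron share was 21.4% within 25 bp, also above that of coding bases. From 50 to 75 bp it was lower, 11.65% against 12.14%, and beyond 75 bp nearly equal, 9.66% against 9.65%. No interval is given, since neighbouring bases share footprints.

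A profile base by base over 194837 edges of coding exons takes in these sites and also peaks whose midpoint lies outside the exon. Accessibility rose across the edge into the exon, in a profile where GC content was not matched. In the intron 200 to 500 bp away, 0.901% of bases lay in a peak in replicate 1 and 0.372% in replicate 2. In the last 50 bp of intron it was 1.10% and 0.532%, and in the outermost 50 bp of exon 1.25% and 0.621%. At coding bases 200 to 500 bp past the edge it was 1.66% and 0.909%. Footprints went the other way across the edge. Of peak bases, 21.5% and 16.2% lay in a footprint 200 to 500 bp into the intron, 17.8% and 14.7% in the last 50 bp of intron and 16.7% and 13.4% in the outermost 50 bp of exon. At coding bases past the edge the shares were 15.4% and 13.0% from 50 to 200 bp and 15.5% and 14.1% from 200 to 500 bp, with no further fall. Bands far past the edge come from long exons and also from neighbouring exons across short introns.

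**Figure D4:**
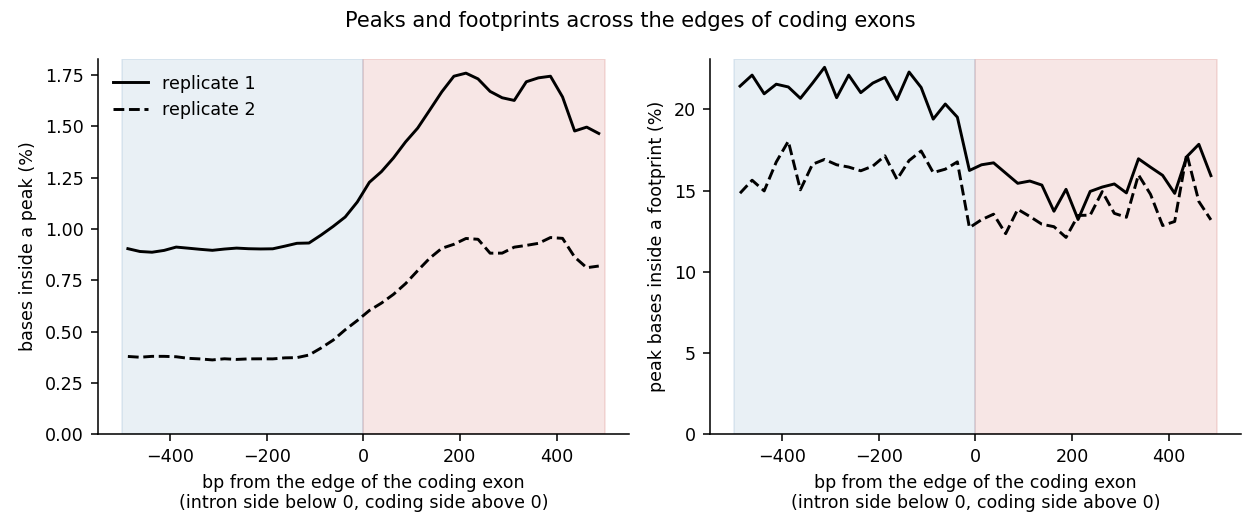
Percent of bases inside a peak (left) and percent of peak bases inside a footprint (right) against distance in bp from the edge of a coding exon, intron side below 0 and coding side above 0, in bins of 25 bp, for replicate 1 (solid) and replicate 2 (dashed). Peak cover rises across the edge (0.901% to 1.66% in replicate 1 between the outer and inner bands), and the footprint share of peak bases falls from the intron to the exon side of the edge. GC content is not matched.

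Per base, coding sequence held more sites than introns, and GC content moved with this. Over all 16008 genes, eligible coding sequence (20.16 Mb) held 88.0 sites per Mb in replicate 1 and 47.2 in replicate 2. Eligible intron sequence (768.9 Mb) held 44.8 and 19.8 per Mb, so the ratio was 1.96 and 2.39, with a mean of 2.17 ± 0.299 (SD, n = 2). The ratio was above 1 at every distance from starts, from 1.58 to 2.91 in replicate 1 and from 1.72 to 3.52 in replicate 2 over 5 distance classes. Bases listed at a false discovery rate below 0.05, counted base by base, made up 2.38% of coding and 1.28% of intron bases in replicate 1, and 1.14% and 0.527% in replicate 2.

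Coding exon sites had a mean GC content of 57.6% against 51.6% for intron sites of the same genes in replicate 1, and 58.6% against 52.6% in replicate 2. Their median CpG ratio, observed over expected, was 0.408 and 0.429 against 0.209 and 0.216. A CpG ratio above 0.6, as in CpG islands, was found at 23.5% and 25.7% of coding exon sites and at 3.19% and 3.26% of intron sites. With introns weighted to the GC of coding sequence, the intron rate was 114 sites per Mb in replicate 1 and 60.7 in replicate 2. Coding sequence then held 0.769 and 0.777 times as many sites as introns. The direction of the comparison thus turned once GC was matched. From 45% to 65% GC coding sequence was below introns in every class and both libraries, for example 139 against 225 sites per Mb at 55% to 60% in replicate 1 and 78.6 against 127 in replicate 2. At 65% GC and above coding sequence was higher, 567 against 322 per Mb and 375 against 205. In that class 62.8% of the intron sequence is repeats. Outside repeats the order there turned too, to 572 against 780 and 380 against 504 per Mb. Outside repeats, at the GC and distances of coding sequence, the ratio was 0.612 and 0.6002.

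**Figure D5:**
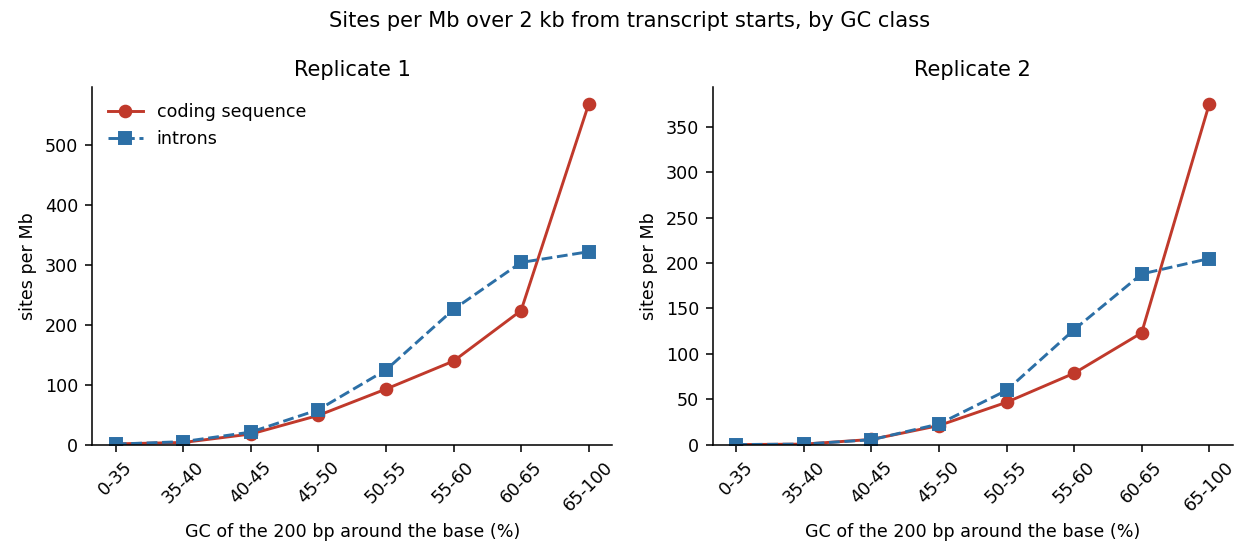
Sites per Mb (y axis) in eligible coding sequence (red circles) and eligible intron sequence (blue squares), repeats included, by GC of the surrounding 200 bp (x axis, %), in replicate 1 (left) and replicate 2 (right). Both rates climb with GC, coding sequence lies below introns from 45% to 65%, and above them at 65% and over (567 against 322 per Mb in replicate 1).

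Place and length of the exon were also set beside the rate. Internal exons held the fewest sites, 77.7 per Mb in replicate 1 and 40.2 in replicate 2. Last coding exons held 123 and 69.9, first coding exons over 2 kb from a start 109 and 69.9, and single-exon coding sequences 103 and 58.5. By length the rate was highest at 300 to 500 bp, with 137 and 75.2 sites per Mb, and lowest in exons of 100 bp or less, with 62.9 and 26.1. Exons above 1000 bp had 79.3 and 42.6. Exons that held a site had a median length of 205 bp in replicate 1 and 216 bp in replicate 2, against 127 bp over the 119289 exons with any eligible base. A longer exon offers more bases for a midpoint, which the rate per Mb takes into account and the median length does not. Sites were mostly coding over their length. The median share of coding bases was 83.4% and 86.4%, and 37.4% and 40.6% were coding throughout.

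Most coding exon sites were alone in their gene. In replicate 1, 23 of 1774 overlapped another coding exon site, and in replicate 2, 13 of 952 did. The 534 sites of replicate 1 that shared a gene with another had a median density of 0.627, against 0.561 for the 1240 that were alone in theirs. In replicate 2 the values were 0.732 (235 sites) and 0.660 (717 sites). Plec, the gene of the cytolinker plectin, held the most, 10 sites in replicate 1 and 1 in replicate 2. Its 10 sites were weak, with densities of 0.122 to 0.243, some overlapped each other, and none had a partner in replicate 2. Rai1, which encodes a nuclear regulator of transcription, held 6 and 3 sites, of which 3 in each library had a partner. Ccdc162 held 4 in each animal and all 4 paired up, at densities of 9.20, 5.73, 2.12 and 1.11 in replicate 1 and 1.64, 5.29, 1.49 and 0.504 in replicate 2. The Ccdc162 site at chr10:41690001-41690180, which had 9.20 in replicate 1 and 1.64 in replicate 2, has the same start and end in both.

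Akap12, which encodes a scaffold of protein kinase A, held 3 and 4 sites, with densities of 0.799 to 1.65 in replicate 1 and 0.438 to 1.10 in replicate 2. Btbd7 held 3 in each, the densest with 5.45 and 8.64. Cand2, which encodes an exchange factor of cullin ligases, held 3 in each, the densest with 3.47 in replicate 1 and 0.840 in replicate 2. Itgb2l, an integrin beta chain gene, held 1 and 6, at 0.0960 to 0.390 in replicate 2. Cic, which encodes the repressor Capicua, held 0 and 6, at 0.264 to 0.384. Setd1b, a histone methyltransferase gene named after its values were seen, held 6 sites in replicate 1 and 0 in replicate 2. Its sites stood at 0.307 to 0.704 with no partner, and some overlapped each other. All 4 sites at Ccdc162 and all 3 at Cand2 had a partner in the other animal, and 2 of the 3 sites of replicate 1 at Btbd7 did.

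Some genes of T-cell identity held a coding exon site away from promoters. Beside each list stands the share of all 16008 eligible genes, 9.23% in replicate 1 and 5.12% in replicate 2. Of 23 T-lineage transcription factors with eligible coding sequence, 6 held a site in replicate 1 (26.1%) and 4 in replicate 2 (17.4%). Of 21 T-lineage genes, 2 and 4 did (9.52% and 19.05%), and of 12 genes of V(D)J recombination, 1 and 2 (8.33% and 16.7%). Of the 10 thymocyte markers, some of which are in these lists, 2 and 3 did. Chromatin regulators had 2 and 3 of 20, liver genes 3 and 1 of 14, muscle genes 2 and 3 of 12 and neuron genes 1 and 0 of 14. These shares rest on a few genes each, and the lists differ in coding length. The lists were picked with earlier results of these data in view.

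Zbtb7b, which encodes ThPOK, the factor of the CD4 lineage, had the densest shared site of the T-lineage factors, at 2.35 and 1.79 in the 2 animals. That site lies wholly in the last coding exon, 7298 bp from the nearest start. Bach2, a repressor that restrains T-cell differentiation, had 2.31 and 0.870 in its long second coding exon of 1590 bp, but 556 bp from a RefSeq start. Tcf7, the gene of TCF-1, had 1.34 and 0.834 over a coding exon of 93 bp, and 46.5% of that site was coding. Ets1 (0.508) and Nfatc1 (0.497) held 1 each in replicate 1 alone.

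Cd8b1, which encodes the beta chain of the CD8 co-receptor, had a site of density 5.32 in replicate 1, at chr6:71334041-71334180. A peak of replicate 2 overlapped that site but was not a coding exon site by the rule. The coding exon site of Cd8b1 in replicate 2 lay elsewhere, at chr6:71325861-71326200, with 0.444. Cd8a, the alpha chain gene, had 1 site in replicate 2, with 1.33. Trat1 (0.462) had 1 in replicate 2, and Cd2 (0.333) had 1 in replicate 1. Lig4, the ligase that joins V(D)J ends, had a site in both animals, at 0.751 and 0.480, within its single coding exon of 2733 bp. Dntt, which encodes terminal deoxynucleotidyl transferase, had a weak site in replicate 2 (0.186). The Cd8b1 site of replicate 1, the shared Zbtb7b site in both animals, the Bach2 site of replicate 1 and the Cd8a site of replicate 2 lay above the upper quartile of coding exon sites (1.51 and 1.28).

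Among gene families, olfactory receptor genes held no site in either library in 97 genes with eligible coding sequence. A count of 0 allows a share of up to 3.09% (3 genes of 97, counting error only), which is below the background of both animals. These 97 genes hold 79.6 kb of eligible coding sequence, against 20275 kb over all 16008 genes. Neither coding length nor GC was matched in this comparison. Vomeronasal receptor genes held sites in 2 and 0 of 138, protocadherin genes in 1 and 0 of 66 and zinc finger (Zfp) genes in 20 and 15 of 362 (5.52% and 4.14%). Collagen genes had 8 and 5 of 43 (18.6% and 11.6%), integrin genes 7 and 5 of 30 (23.3% and 16.7%) and solute carriers 31 and 16 of 324 (9.57% and 4.94%). Per Mb of eligible coding sequence, collagen genes held 86.76 and 40.04 sites, against 87.94 and 47.1 over all 16008 genes, counted gene by gene. The higher share of collagen genes thus came without a higher rate per Mb. Integrin genes held 111.6 and 159.4 per Mb, and 6 of their 10 sites in replicate 2 lay in Itgb2l. Solute carriers held 92.19 and 46.09 per Mb. Myosin heavy chain genes had 7 and 1 of 14, which differs most between the animals. In 59.8 kb of eligible coding sequence these genes held 117.1 and 16.73 sites per Mb. The first value is above and the second below that of all 16008 genes.

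Genes with a coding exon site had an open promoter slightly more often than all eligible genes, a set that includes them. As defined for the markers, an open promoter was present in 71.2% of genes with a coding exon site in replicate 1 and 65.4% in replicate 2. Of all eligible genes, 68.2% in replicate 1 and 60.9% in replicate 2 had one. Copies of the sequence elsewhere touched few sites: 14 of 1774 (0.789%) and 8 of 952 (0.840%) had 31-base words with a median of more than 1 copy in the genome. The limit of 2 kb was no step in these values. Coding peaks 1500 to 2000 bp from a start numbered 251 and 140, with median densities of 0.667 and 0.678, and those at 2000 to 2500 bp 188 and 89, with 0.577 and 0.786.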

How the data were processed

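DNase-seq libraries of thymus from 2 animals were used, each with its own files, and nothing was pooled. The deposited peak lists give a signal density per peak, made by the authors with a scaling that is not stated. The authors also deposited q-values (false discovery rates) for runs of bases, and every value listed is below 0.05. The number in the deposited footprint files, of another kind and with no stated meaning, is the same in every line, so only footprint positions were used. Positions are on mm10, per the labels. For the aligner, peak caller and footprint caller, names and versions were not given in the sources used here. Of the 2 peak lists per library the longer was the main one. Read totals are not stated, so depth is unknown, and Wilson intervals cover counting error over sites only.

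Gene models were GENCODE M21 on GRCm38. Coding sequence and introns were eligible when over 2 kb from every transcript start, and intron sites had their midpoint in an intron and in no exon of any gene. A footprint was counted when its midpoint lay in the peak. Sites were shared when they overlapped by at least 1 bp. Mean GC content was taken over the whole peak. GC classes and motifs were read in the 200 bp around the midpoint. Motifs were searched as consensus letters on both strands, where the E-boxes CAGCTG and CACCTG and the CTCF consensus can overlap. CpG observed over expected and repeats came from the reference. Analyses used Python 3.11.15 with numpy 2.4.6, pandas 2.3.3, scipy 1.17.1, numba 0.67.0 and matplotlib 3.10.9. Site counts by the rule were checked against bedtools 2.31.1 and tested on simulated data.

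Named sites were the 12 with the best mean density rank among those found in both libraries, the 8 genes with most sites (11 genes tied at 6 sites and were taken by symbol), sites of the T-lineage and recombination lists found in both, and the 4 with the most footprints, the 4 widest and the 4 densest with a CTCF match. Other genes of the T-cell lists were named after their values were seen. Some genes and a sequence that these rules name are not reported here. The sites, lists and motifs were chosen with earlier results of these data known. Alternatives changed the peak list, the distance from starts, the gene models, the coding share, filters on weak and unshared peaks, the intron set, the overlap and footprint rules, and the library, and the closing section gives their effect.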

Additional observations from a re-analysis of the deposited data

How the results depend on the processing

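Values are means over the 2 libraries. The number of coding exon sites was 1363 ± 581 (SD, n = 2), and 952 to 1774 with either library left out. It was 831.5 with the shorter peak list, 831.5 over 5 kb from starts, 518 in the denser 50% of peaks and 717.5 among peaks found in both libraries. The ratio of sites per Mb was 2.17, and 1.96 to 2.39 with either library left out. It fell to 1.84 at the distances of coding sequence and 1.87 outside repeats, and turned to 0.773 at the GC of coding sequence and 0.606 at its GC and distances outside repeats. The density ratio was 0.827, and 0.811 to 0.842 with either library left out. It was 0.978 with the shorter list (1.01 in replicate 1 and 0.943 in replicate 2) and 0.986 among peaks in both libraries (1.07 and 0.899). It was 0.796 with at least 50% of the peak coding, 0.793 against introns within 1 kb of a coding exon and 0.906 as a median over genes. In the denser 50% it turned to 1.02 (1.11 and 0.934). The width difference was 5 bp, 0 to 10 bp with either library left out, and -2.5 bp with at least 50% coding. The difference in footprints, -0.0695, was -0.174 to 0.0347 with either library left out, so the remaining library sets its sign. It turned to 0.155 with the shorter list, 0.304 in the denser 50%, 0.103 among peaks in both libraries (above 0 in both libraries in these 3) and 0.106 within 4 density classes. Both libraries were below 0 over 1 kb from starts and with at least 50% coding. The cause was not tested. The GC difference, 5.94 percentage points, kept its direction in all 12 alternatives. It was 5.87 with the shorter list, 6.35 over 1 kb and 5.66 over 5 kb from starts, 6.28 with at least 50% coding, 5.90 with CCDS models, 5.71 among peaks in both libraries, 5.64 against near introns and 5.99 with RefSeq starts also avoided. The share with a partner, 58.2%, was 39.7% to 76.7% with either library left out and 88.1% in the denser 50%. The GC, distance, repeat, RefSeq, predicted-gene, per-gene and density-class alternatives were chosen after seeing the data. No paired analysis was possible because the libraries form 1 group, with no second group to share their numbers.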
